A study of Drosophila melanogaster with 30 samples.

Results

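The genes for 10 enzymes or isoforms of the central glycolytic pathway were followed in whole flies of a *pink1*-mutant *Drosophila* model. The 10 genes, of 14326 in the count table, were taken by name: *Hex-A*, *Pgi*, *Pfk*, *Tpi*, *Gapdh1*, *Gapdh2*, *Pgk*, *Pglym78*, *Eno* and *Pyk*, which the table spells *PyK*. All 10 were present, and all 10 passed the filter on low counts that left 13190 genes to be tested.

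Glycolysis turns glucose into pyruvate in the cytosol. In its first part, sugar phosphates are made and cut at the expense of ATP, and in its second part the fragments are oxidised and ATP and NADH are gained. In insects the pathway feeds flight muscle, where NADH is passed on largely through a glycerol phosphate shuttle, and pyruvate then enters the mitochondria, the organelles that the kinase Pink1 helps to keep under quality control.

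RNA was sequenced from 30 libraries of whole 1-day-old male flies, and each library was made from pooled flies. Group 4 held 10 libraries of *pink1B9* mutants that were able to fly, and group 3 held 10 libraries of *pink1B9* mutants that were not, drawn from the same parent pairs. Group 2 held 8 libraries of *pink1B9* mutants with no flying offspring. Group 1 held the 2 control libraries of the *pink1RV* line, here called control libraries 1 and 2. Which library of group 4 shared parents with which of group 3 is not given in the labels. The groups were compared to ask which transcripts go with the mutation and which go with flight in mutants. With 2 controls, each comparison against group 1 rests on these 2 pools. Whether libraries of a group came from separate cultures is not stated, so the p-values measure the spread between these libraries. That spread was estimated once for all groups, so it comes mostly from the 28 mutant libraries. The controls lay 0.907 (*Tpi*) to 2.844 (*Gapdh1*) log2 units apart on the 10 genes, against SDs of 0.171 to 0.382 over the mutants. The p-values against group 1 thus assume that controls vary like mutants.

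Total counts ranged between 6434252 and 38330421 a library. *Pink1* was at 42.5 to 101 CPM in the 28 mutant libraries, against 221 and 270 CPM in the controls, where CPM are counts per 1000000 after scaling by the trimmed mean of M-values (TMM). Summed over 7 ovary genes, 1 library of flying mutants (group 4, replicate 4) stood at 4989 CPM, against at most 12.95 CPM in any other, and 6 libraries of groups 3 and 4 carry a label of human skin in their descriptions. Leaving out either set changed no count of glycolytic genes called. The control libraries differed from each other in muscle transcripts, with the 10 muscle markers summing to 9860 CPM in control library 1 and 33810 CPM in control library 2. The same sum was 10800 to 36330 CPM in group 4, 17120 to 25680 CPM in group 3 and 8216 to 36000 CPM in group 2, and no muscle marker was at 0 in all libraries. In whole flies, fewer cells of a type and less RNA per cell cannot be told apart.

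Levels were first ordered within the mutants, as CPM per kilobase of the longest annotated transcript, since counts grow with length. *Gapdh1* led with a median of 841, and *Hex-A* was last with 53.0. *Gapdh1* was above *Eno* (513) in all 28 mutant libraries, while *Eno* and *Tpi* (507) changed places, with *Eno* above in 15 of 28. *Tpi* was above *Gapdh2* (464) in 19 of 28, and *Gapdh2* was above *PyK* (377) in 26. *PyK* was above *Pglym78* (293) in 26, and *Pglym78* and *Pgi* (281) also changed places, with *Pglym78* above in 15. Below them came *Pgk* (183), *Pfk* (151) and *Hex-A*, each under its neighbour in 28, 26 and 28 libraries. The lowest per length were thus the kinases of the first part of the pathway.

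The question put first was whether the mutants differed from controls. *Hex-A*, the hexokinase that phosphorylates glucose on entry, was the only one of the 10 genes to pass the test, and it was lower in each mutant group. The test was edgeR's quasi-likelihood test with Benjamini-Hochberg adjustment over all genes tested and a threshold of 0.05. In group 4 against group 1, 1 of 10 was called, where 33.2% of all genes were called in either direction and 15.7% were lower. For group 3 the count was also 1 of 10, beside 26.5% of all genes called and 12.3% lower, and for group 2 it was 1 of 10, beside 20.2% called and 9.52% lower. None of the 10 was above both controls in all 28 mutant libraries (7.75% of all genes) or below both in all of them (6.93% of all genes). The median log2 fold change of the 10 genes was −0.38, −0.29 and −0.36 in groups 4, 3 and 2 against group 1, beside medians of 0.08, −0.01 and −0.0003 over all genes.

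**Figure D1:**
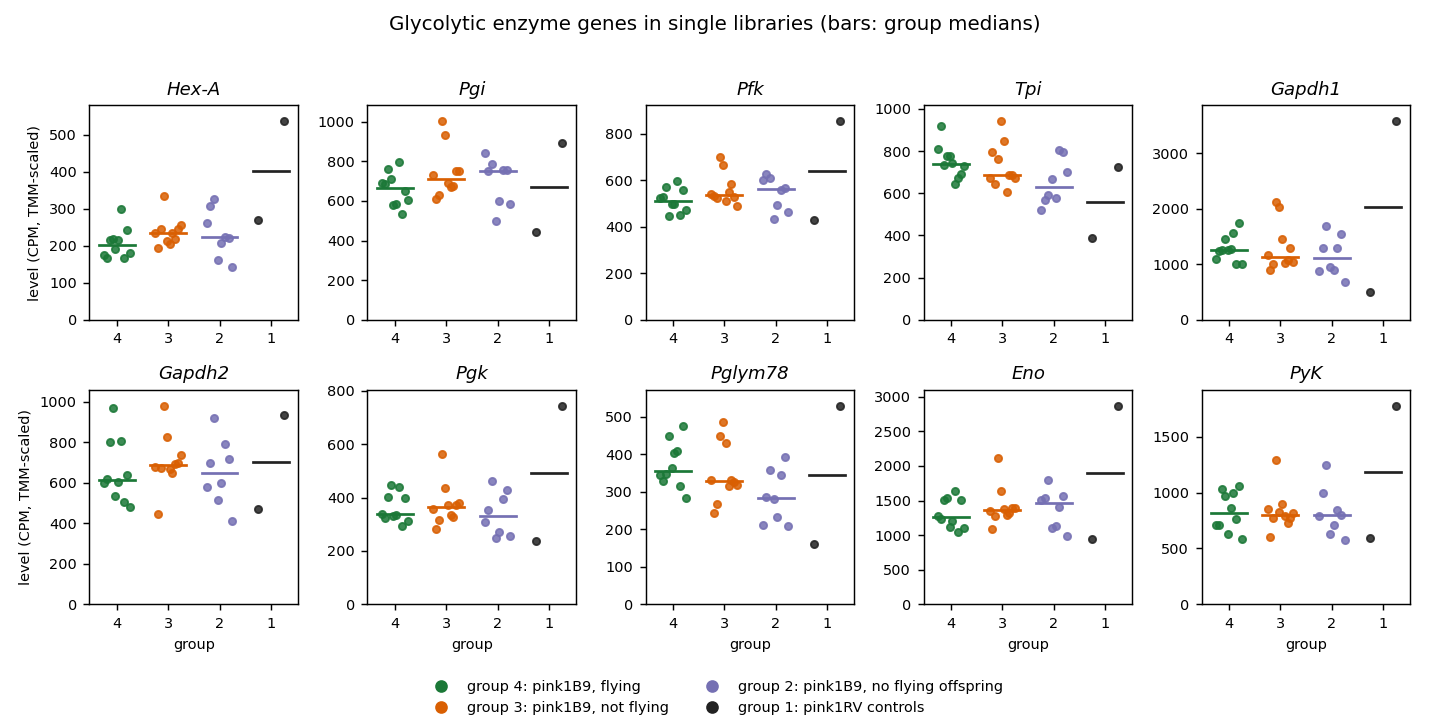
Level of each glycolytic gene in every library. The y axis gives TMM-scaled CPM from 0, the x axis the groups 4, 3, 2 and 1, each point is 1 library and bars are group medians. The 2 controls lie far apart for all 10 genes, and in *Pfk*, *Gapdh1*, *Pgk*, *Pglym78* and *Eno* all 28 mutant libraries lie between them.

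*Hex-A* (FBgn0001186, on the X chromosome from 9585675 to 9589813 in BDGP6) was at 166 to 298 CPM in group 4 (median 203), 195 to 335 CPM in group 3 (median 234) and 143 to 327 CPM in group 2 (median 223), against 269.8 and 536.0 CPM in control libraries 1 and 2. It lay below both controls in 9 of 10 libraries of group 4, 9 of 10 of group 3 and 6 of 8 of group 2, and the other 4 libraries were between the controls. The log2 fold change was −0.96 in group 4 (standard error 0.23, adjusted p = 0.0026 from edgeR), −0.76 in group 3 (0.23, adjusted p = 0.018) and −0.80 in group 2 (0.24, adjusted p = 0.018). These calls rested on control library 2. Without it the values were −0.39, −0.18 and −0.22, and the adjusted p from edgeR was 0.44, 0.76 and 0.74. Over all alternatives, the adjusted p ranged over 0.0013 to 0.44 in group 4, 0.0078 to 0.76 in group 3 and 0.00698 to 0.74 in group 2, and in group 2 the call was also lost when only groups 2 and 1 were fitted (adjusted p = 0.10 from edgeR).

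*Pgi*, which turns glucose 6-phosphate into fructose 6-phosphate, was at 535 to 794 CPM in group 4 (median 668), 608 to 1002 CPM in group 3 (median 711) and 501 to 840 CPM in group 2 (median 753), against 445 and 891 CPM in the controls. Of the 28 mutant libraries, 26 lay between the controls and 2, both of group 3, lay above. *Pfk*, the phosphofructokinase that is a main point of control of the pathway, was at 446 to 598 CPM in group 4 (median 511), 491 to 702 CPM in group 3 (median 536) and 432 to 628 CPM in group 2 (median 564), against 430 and 854 CPM in the controls. It had the narrowest spread of the 10 over the mutants, with an SD of 0.17 on the log2 scale, and its fold changes against group 1 of −0.32, −0.19 and −0.24 (log2; groups 4, 3 and 2) did not pass the test.

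*Tpi* (on chromosome arm 3R from 30132981 to 30134599), which interconverts the triose phosphates, was the only one of the 10 with a positive log2 fold change of more than 0.2 against group 1. Its level was 644 to 921 CPM in group 4 (median 739), 607 to 941 CPM in group 3 (median 686) and 523 to 805 CPM in group 2 (median 630), against 387 and 727 CPM in the controls. It lay above both controls in 7 of 10, 4 of 10 and 2 of 8 libraries of these groups, and between the controls in the rest. The log2 fold change was 0.43 in group 4, 0.39 in group 3 and 0.23 in group 2 (edgeR, adjusted p = 0.073, 0.11 and 0.39), and none passed. In group 4 it passed with limma-voom (0.50, adjusted p = 0.031) and with scaling by library totals alone in edgeR (0.52, adjusted p = 0.023), and over all alternatives its adjusted p ran from 0.00885 to 0.84.

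The paired glyceraldehyde 3-phosphate dehydrogenase genes, whose enzyme makes the NADH of glycolysis, differed in how far the controls lay apart. *Gapdh1* was at 1002 to 1749 CPM in group 4 (median 1256), 898 to 2126 CPM in group 3 (median 1128) and 677 to 1687 CPM in group 2 (median 1121), against 497 and 3574 CPM in the controls. *Gapdh2* was at 482 to 970 CPM in group 4 (median 614), 449 to 980 CPM in group 3 (median 686) and 412 to 920 CPM in group 2 (median 647), against 472 and 937 CPM in the controls. All mutant libraries lay between the controls for *Gapdh1*, and 24 of 28 did so for *Gapdh2*. The ratio of *Gapdh1* to *Gapdh2* counts was 1.49 to 2.74 in group 4, 1.42 to 2.46 in group 3 and 1.51 to 2.15 in group 2, against 1.05 and 3.82 in the controls. As near copies, these genes may share reads that were divided between them by estimation.

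*Pgk*, the kinase that makes the first ATP of the payoff steps, was at 295 to 447 CPM in group 4 (median 337), 283 to 564 CPM in group 3 (median 364) and 249 to 463 CPM in group 2 (median 330), against 239 and 743 CPM in the controls. *Pglym78*, a phosphoglycerate mutase, was at 285 to 476 CPM in group 4 (median 357), 244 to 487 CPM in group 3 (median 329) and 210 to 393 CPM in group 2 (median 284), against 160 and 529 CPM in the controls. Both genes lay between the controls in every mutant library. Both overlap genes on the other strand, *Pgk* with *Cwc25* and *Bacc* and *Pglym78* with *eIF2D*, and use of the strand in counting was not given in the sources used here. Counts over all libraries were 115010 for *Bacc* and 8294 for *Cwc25*, against 218822 for *Pgk*, and 13919 for *eIF2D*, against 198842 for *Pglym78*.

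*Eno*, the enolase, was at 1046 to 1632 CPM in group 4 (median 1259), 1087 to 2110 CPM in group 3 (median 1367) and 984 to 1799 CPM in group 2 (median 1464), against 938 and 2867 CPM in the controls. It overlaps *Rrp40* on the other strand, whose counts over all libraries were 1969, against 840444 for *Eno*. *PyK*, the pyruvate kinase of the last step, was at 587 to 1062 CPM in group 4 (median 814), 602 to 1294 CPM in group 3 (median 801) and 572 to 1244 CPM in group 2 (median 795), against 591 and 1774 CPM in the controls. *Eno* lay between the controls in all 28 mutant libraries and *PyK* in 26, with 2 below. Their log2 fold changes in group 4 against group 1 were −0.53 and −0.51 (edgeR, adjusted p = 0.094 and 0.15).

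**Figure D2:**
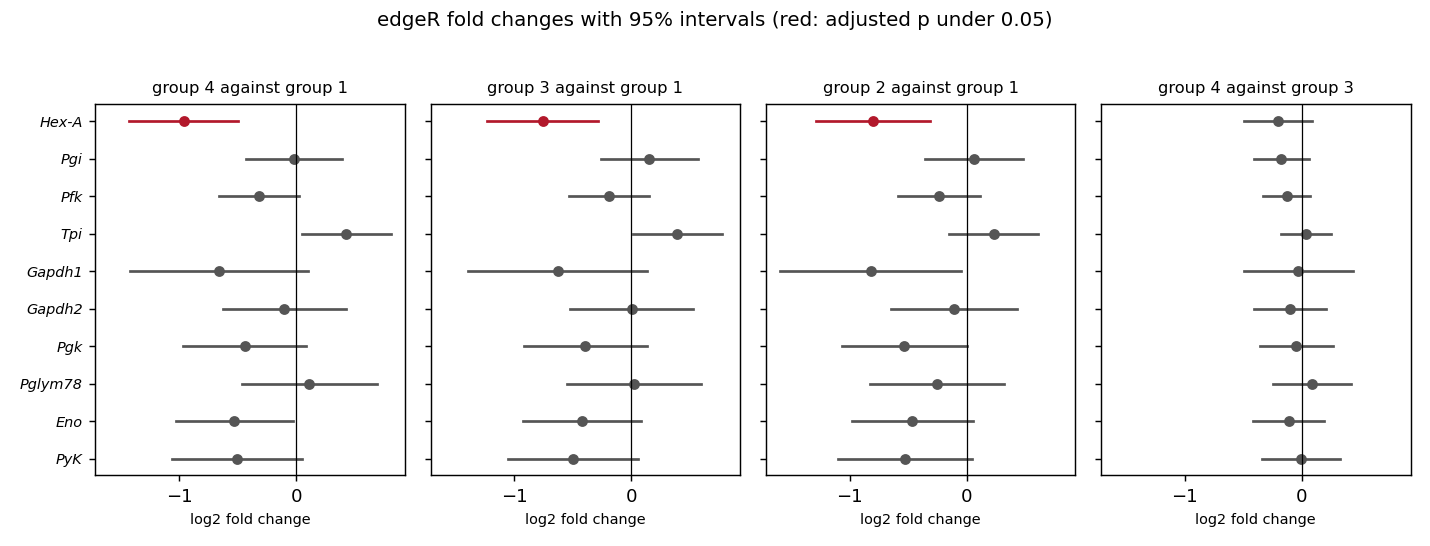
Log2 fold changes of the 10 genes (x axis) with 95% intervals (lines) from edgeR, in groups 4, 3 and 2 against group 1 and in group 4 against group 3. Red marks an adjusted p under 0.05, which *Hex-A* alone reached, at −0.96, −0.76 and −0.80; the intervals between groups 4 and 3 all include 0.

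The controls lay far apart on these genes. Every one of the 10 was higher in control library 2 than in control library 1, which held for 41.8% of all genes. *Gapdh1* was 7.19-fold higher, *Pglym78* 3.30-fold, *Pgk* 3.11-fold, *Eno* 3.06-fold and *PyK* 3.00-fold, while *Pgi*, *Pfk*, *Gapdh2*, *Hex-A* and *Tpi* were 1.88-fold to 2.00-fold higher. All 10 were past 1.5-fold, as were 10.8% of all genes. The 10 genes together held 1.18% of the counts of control library 2 and 0.474% of those of control library 1, and 0.506% to 0.974% in the mutants. The aldolase gene *Ald1*, which cuts the sugar between the steps of *Pfk* and *Tpi*, was 3.37-fold higher.

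Muscle transcripts differed between the controls in the same direction, and all 10 muscle markers were higher in control library 2. The flight muscle genes *Act88F*, an actin, and *fln*, for flightin of the thick filament, were at 2929 and 805 CPM in control library 2 and at 66.8 and 14.3 CPM in control library 1. Marker sums of other tissues differed between the controls as well. In control libraries 1 and 2, fat body markers summed to 706.2 and 2195 CPM and midgut markers to 3667 and 10190 CPM. Eye markers went the other way, at 9947 and 4611 CPM. The sums of testis (3171 and 2854 CPM), nerve (708.7 and 675.9 CPM) and ovary markers (10.95 and 9.555 CPM) lay closer together. The part of any of these transcripts in the difference of the glycolytic genes was not tested.

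For 8 of the 10 genes, the sign of the fold change in group 4 depended on which control was kept; *Hex-A* was lower and *Tpi* higher with either. Against control library 2 alone, 6 of the 10 (*Hex-A*, *Pfk*, *Gapdh1*, *Pgk*, *Eno* and *PyK*) were called lower in each mutant group, beside 8.75%, 5.88% and 5.11% of all genes in groups 4, 3 and 2, and *Gapdh1* stood at −1.45, −1.42 and −1.61 in groups 4, 3 and 2 (log2; edgeR, adjusted p = 0.00554, 0.00843 and 0.00361). Against control library 1 alone, none was called lower. *Tpi* was then called higher in all 3 groups (0.94, 0.91 and 0.75) and *Pglym78* in group 4 (1.21, adjusted p = 0.031 from edgeR), which made 2, 1 and 1 of 10 higher, beside 3.24%, 2.62% and 2.18% of all genes. *Gapdh1* stood at 1.36, 1.40 and 1.21, which did not pass. With 1 control, that library is assumed to vary like those of the other groups.

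**Figure D3:**
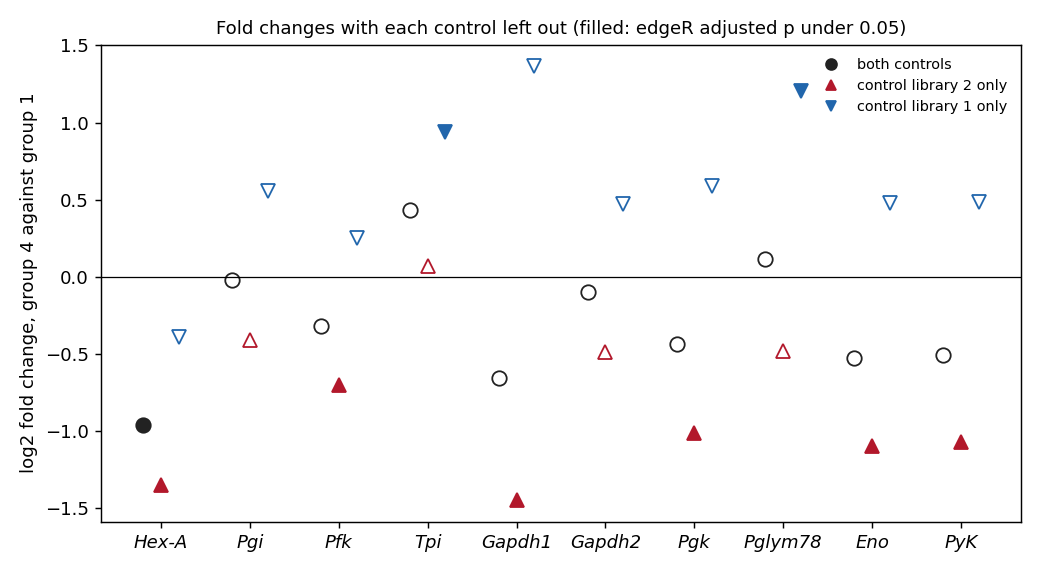
Log2 fold changes of the 10 genes in group 4 against group 1 (y axis) with both controls (circles), with control library 2 only (upward triangles) and with control library 1 only (downward triangles). Filled symbols have an adjusted p under 0.05 from edgeR; *Gapdh1* lies at −1.45 with control library 2 only and at 1.36 with control library 1 only.

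Next, flying mutants were set against non-flying mutants of the same parents, the comparison with the closest genetic background. None of the 10 genes was called in group 4 against group 3, where 0% of all genes were called, and the smallest adjusted p of the 10 was 0.70 (*Pgi*, log2 fold change −0.18). None of the 10 had an unadjusted p under 0.05 with edgeR, limma-voom or DESeq2, beside 1055, 618 and 931 of 13190 genes. The intervals bound the difference: that of *Pfk* ran from −0.33 to 0.07, that of *Hex-A* from −0.49 to 0.09 and the widest, that of *Gapdh1*, from −0.49 to 0.43.

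The other comparisons among mutants gave the same counts. In group 4 against group 2, and in group 3 against group 2, 0 of 10 were called, beside 0% of all genes. At an unadjusted p under 0.05, *Pglym78* alone of the 10 passed in group 4 against group 2 with edgeR, limma-voom and DESeq2. Over all 13190 genes, 1593, 1355 and 1535 did so with these 3 tools. Its log2 fold change was 0.36 (95% interval 0.01 to 0.71, edgeR adjusted p = 0.41). In group 3 against group 2 none of the 10 passed, beside 243, 255 and 283 of all genes. In the flying mutants against all non-flying mutants, 0 of 10 were called, beside 0.326% of all genes. None of the 10 had an unadjusted p under 0.05 with any of the 3 tools, beside 1791, 1267 and 1617 of all genes. Without the library of flying mutants with ovary transcripts, edgeR called 0 of 13200 genes in this comparison (1175 at an unadjusted p under 0.05).

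Most of the 10 genes varied together over the mutant libraries. How many pairs of other genes do so was not computed, so these counts have no share over all genes beside them. Over the 28 mutant libraries, Pearson's r of log2(CPM + 1) was positive in 41 of 45 pairs of the 10 genes, with a median of 0.697, and 35 positive pairs and 1 negative pair had an adjusted permutation p under 0.05. The closest pair was *Pgk* and *Eno*, with r = 0.908 and Spearman's rho = 0.872 (permutation p = 1e-05 for both, the smallest that 100000 permutations can give; adjusted p = 2.5e-05 and 2.6e-05 over 45 pairs). Within groups 4, 3 and 2, r was 0.958, 0.989 and 0.894, and it was 0.88 without the 2 libraries farthest from the median of *Pgk*. The permutations treated the 28 libraries as independent, although groups 3 and 4 came from the same parent pairs. *Gapdh1* and *Pglym78* had r = 0.896 and rho = 0.899 (permutation p = 1e-05 for both, adjusted p = 2.5e-05 and 2.6e-05), with 0.91, 0.928 and 0.924 within groups 4, 3 and 2. *Gapdh1* and *Gapdh2* had r = 0.768 and rho = 0.76 (permutation p = 1e-05 for both, adjusted p = 2.5e-05 and 2.6e-05). The size of the spread was common: the median SD over the mutants was 0.289 on the log2 scale for the 10 genes and 0.282 for all genes with a mean of at least 10 CPM.

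*Tpi* stood apart from the others. Its median r with the other 9 genes was 0.07, whereas the medians of the others lay between 0.585 and 0.830. With *Hex-A* it ran the opposite way, with r = −0.418 and rho = −0.465 (permutation p = 0.026 and 0.014, adjusted p = 0.034 and 0.018 over 45 pairs), and r was −0.603, −0.293 and −0.449 within groups 4, 3 and 2 and −0.555 without the 2 farthest libraries. With *Pglym78*, *Tpi* had r = 0.526 and rho = 0.521 (permutation p = 0.004 and 0.0048, adjusted p = 0.0053 and 0.0065 over 45 pairs). Within groups 4, 3 and 2 that r was −0.234, 0.615 and 0.544, and it was 0.345 without the 2 farthest libraries. Among the 36 pairs without *Tpi*, every r was positive (0.304 to 0.908) and 34 passed.

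**Figure D4:**
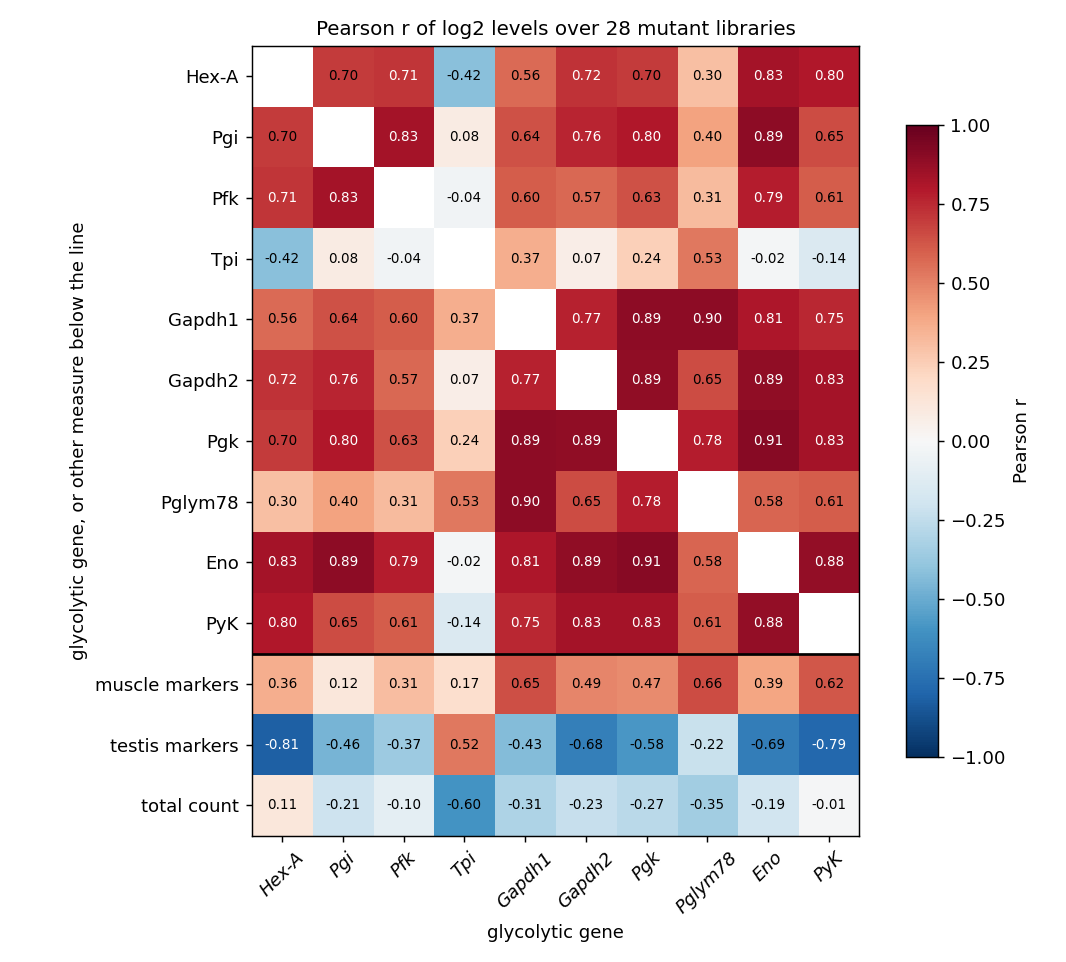
Pearson's r of log2 levels over the 28 mutant libraries, for pairs of the 10 glycolytic genes and, under the line, for each gene with the summed muscle markers, the summed testis markers and the total count. Red is positive and blue negative. The row of *Tpi* is mostly pale, with its highest r, 0.526, for *Pglym78*. *Hex-A* and *PyK* have r of −0.814 and −0.786 with testis markers.

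Marker sums of other tissues moved with these levels. The 7 testis markers summed to 3726 to 6385 CPM in group 4, 3952 to 6349 CPM in group 3 and 2617 to 6336 CPM in group 2, against 3171 and 2854 CPM in the controls, with none at 0 in all libraries. Of 30 relations tested with marker sums and depth, *Hex-A* and the testis sum had r = −0.814 and rho = −0.814 (permutation p = 1e-05, adjusted p = 0.00015 and 0.0003), and r was −0.747, −0.871 and −0.916 within groups 4, 3 and 2 and −0.779 without the 2 farthest libraries. *PyK* had r = −0.786 and rho = −0.754 with the testis sum (permutation p = 1e-05 and 2e-05, adjusted p = 0.00015 and 0.0003), with −0.845, −0.657 and −0.945 within groups and −0.75 without the 2 farthest libraries. *Eno* (r = −0.69), *Gapdh2* (−0.684), *Pgk* (−0.582), *Pgi* (−0.464) and *Gapdh1* (−0.432) also ran against the testis sum. Each had an adjusted permutation p under 0.05 for r (for rho, *Gapdh1* had an adjusted permutation p of 0.054). *Pfk* and *Pglym78* did not pass. *Tpi* had r = 0.524 and rho = 0.481 with the testis sum (permutation p = 0.0039 and 0.01, adjusted p = 0.012 and 0.028), the opposite sign to the other 9. Its r was 0.463, 0.505 and 0.459 within groups and 0.418 without the 2 farthest libraries.

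With the muscle sum, *Pglym78* had r = 0.656 and rho = 0.556 (permutation p = 0.00015 and 0.0026, adjusted p = 0.0009 and 0.0087), with 0.572, 0.776 and 0.788 within groups 4, 3 and 2 and 0.454 without the 2 farthest libraries. *Gapdh1* had r = 0.645, *PyK* 0.622, *Gapdh2* 0.489 and *Pgk* 0.469, all with an adjusted permutation p under 0.05 for r (for rho, *Gapdh2* had an adjusted permutation p of 0.062), while the other 5 did not pass. *Tpi* alone passed with the total count, at r = −0.601 and rho = −0.668 (permutation p = 0.00085 and 0.00024, adjusted p = 0.0032 and 0.0018), with −0.73, −0.485 and −0.791 within groups and −0.632 without the 2 farthest libraries. The part of tissue share and depth in these levels was not tested.

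The genes most like the mean of the 10 over the mutants were sought among 9341 genes with a mean of at least 10 CPM, as a description with no test. They were *Scsalpha1* (r = 0.932), a subunit of succinyl-CoA synthetase, *Pdha* (0.921), of pyruvate dehydrogenase, *Mdh2* (0.921), the mitochondrial malate dehydrogenase, *Cyt-c1* (0.894), of respiratory complex III, and *Fum1* (0.893), a fumarase. All libraries share one scaling, and the points are 28 libraries. *Ald1* was at rank 50 with r = 0.725.

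Other genes of the pathway and of glucose synthesis were described from a list of 10. Of these, 4, 4 and 3 were called higher in groups 4, 3 and 2 against group 1 and 0 were called lower, where 17.5%, 14.2% and 10.7% of all genes were higher. *Pepck1*, for the phosphoenolpyruvate carboxykinase that starts glucose synthesis, was at 268 to 421 CPM in group 4 (median 365), 340 to 561 CPM in group 3 (median 441) and 232 to 756 CPM in group 2 (median 425), against 173 and 120 CPM in the controls. Every mutant library was above both controls, as held for 7.75% of all genes. Its log2 fold change was 1.29, 1.58 and 1.54 in groups 4, 3 and 2 (edgeR, adjusted p = 0.0018, 0.00046 and 0.00069). Without control library 2 it was 1.03, 1.33 and 1.29, with an adjusted p from edgeR of 0.099, 0.049 and 0.060.

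*fbp*, the fructose bisphosphatase that works against *Pfk*, was at 58.5 to 128 CPM in group 4 (median 89.8), 72.7 to 152 CPM in group 3 (median 107) and 70.5 to 127 CPM in group 2 (median 98.0), against 48.4 and 51.5 CPM in the controls. All 28 mutant libraries were above both controls, beside 7.75% of all genes. The log2 fold change was 0.89, 1.16 and 0.99 (edgeR, adjusted p = 0.011, 0.0026 and 0.0095). *Hex-C*, a second hexokinase gene, also rose, by 0.64, 0.72 and 0.74 on the log2 scale in groups 4, 3 and 2 (edgeR, adjusted p = 0.046, 0.032 and 0.038), where *Hex-A* fell. It was at 110 to 245 CPM in the mutants, against 102 and 101 CPM in the controls. With 1 control left out, the log2 fold changes were 0.87 to 1.20 for *fbp* and 0.62 to 0.77 for *Hex-C*. The *Hex-C* calls were lost without either control, and those of *fbp* were lost without control library 2 and, in groups 4 and 2, without control library 1. *Hex-t1*, a further hexokinase gene, was called higher in groups 4 and 3 (0.70 and 0.66), and without control library 2 neither call held. *Ald1* had −0.61, −0.38 and −0.32 and was not called (edgeR, adjusted p = 0.083 in group 4).

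**Figure D5:**
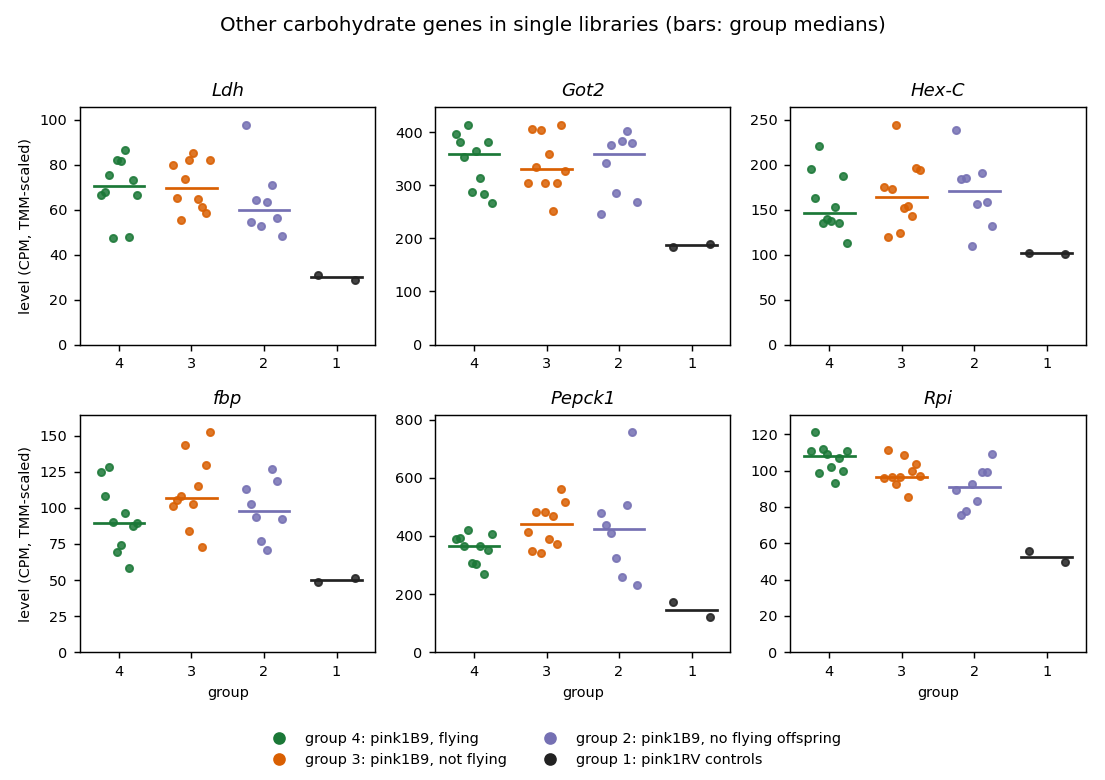
Levels of 6 genes around glycolysis in every library, chosen after their values were seen. The y axis gives TMM-scaled CPM from 0, the x axis the groups 4, 3, 2 and 1, each point is 1 library and bars are group medians. The 2 controls lie closer together than for the 10 glycolytic genes. Every mutant library lies above both, as held for 7.75% of all genes.

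Genes that recycle NADH were taken from a list of 11. Of these, 4, 4 and 3 were called higher and 0 lower in groups 4, 3 and 2 against group 1. The shares of all genes called higher were 17.5%, 14.2% and 10.7%. *Ldh*, the lactate dehydrogenase that regenerates NAD+ from pyruvate, was at 47.3 to 86.4 CPM in group 4 (median 70.6), 55.4 to 85.3 CPM in group 3 (median 69.5) and 48.4 to 97.9 CPM in group 2 (median 59.9), against 31.1 and 28.9 CPM in the controls. All mutant libraries were above both controls, as held for 7.75% of all genes. The log2 fold change was 1.21 (standard error 0.23), 1.24 (0.23) and 1.09 (0.24) in groups 4, 3 and 2 (edgeR, adjusted p = 0.00041, 0.00045 and 0.0017), and it stayed between 1.03 and 1.32 with either control left out, passing except in group 2 without control library 2 (adjusted p = 0.062 from edgeR). *Got2*, a mitochondrial aspartate aminotransferase of the malate-aspartate shuttle, was at 246 to 415 CPM in the mutants, against 185 and 189 CPM in the controls, and rose by 0.88, 0.87 and 0.85 (edgeR, adjusted p = 0.0014, 0.0022 and 0.0034), though without control library 2 it passed in group 4 alone. *Gpdh2* (0.77, 0.78 and 0.73) was called in all 3 groups and *Mdh1* (0.60 and 0.69) in groups 4 and 3, and all these calls were lost without either control.

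In the pentose phosphate pathway, a side path that makes NADPH and ribose, 9 names were listed. The names *rpe* and *Tkt* were not matched, and *CG17333* and *Pgls* name the same gene, which left 6 genes. Of the 6 genes, 3, 3 and 2 were called higher in groups 4, 3 and 2, with 0 lower. Over all genes, 17.5%, 14.2% and 10.7% were called higher. *Rpi*, the ribose 5-phosphate isomerase, was at 93.4 to 121 CPM in group 4 (median 108), 85.5 to 112 CPM in group 3 (median 96.7) and 75.6 to 109 CPM in group 2 (median 90.9), against 55.7 and 49.6 CPM in the controls. Each library of the mutants was above both controls, which was so for 7.75% of all genes. Its log2 fold change was 1.02, 0.91 and 0.78 (edgeR, adjusted p = 1.8e-06, 9.8e-06 and 9.1e-05), and it kept its call with either control left out (0.70 to 1.13). *Taldo*, a transaldolase, had 0.93, 0.99 and 0.81, and *Pgls* 0.51, 0.55 and 0.47, the last of which was not called; the calls of both genes were lost with 1 control left out, *Taldo* keeping 0.78 to 1.05.

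A further 8 genes related in sequence to the glycolytic genes were examined. Beside 33.2%, 26.5% and 20.2% of all genes in groups 4, 3 and 2, 0 of these 8 were called against group 1. The nearest to the threshold was *CG9961*, a gene of the phosphoglycerate kinase family, with log2 fold changes of 0.49, 0.54 and 0.43 (edgeR, adjusted p = 0.080, 0.062 and 0.16). *Pglym87*, the relative of *Pglym78* and also on the list of testis markers, was at 138 to 257 CPM in group 4, 137 to 257 CPM in group 3 and 97.7 to 326 CPM in group 2, against 242 and 198 CPM in the controls. The ratio of *Pglym87* to *Pglym78* counts was 0.290 to 0.821 in group 4, 0.430 to 0.963 in group 3 and 0.273 to 1.36 in group 2, against 1.51 and 0.375 in the controls, and reads shared by these relatives may have been divided by estimation. The remaining 6 were *CG7059*, *CG7069*, *CG2964*, *CG11249*, *CG12229* and *CG7362*.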

How the data were processed

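The deposited table holds whole-number estimated counts per gene and library, made by the authors with kallisto (version 0.45.0 in the submitters' processing notes), after read trimming with fastp, and summed to genes with tximport. The study's methods name the fly transcriptome BDGP6, the notes also list a human build, and the methods describe counts scaled by length for the limma step, though the sources used here do not say whether the deposited table holds these. One row that names no gene was left out. From these expected counts, edgeR 4.0.16 in R 4.3.3 fitted 1 quasi-likelihood model with the 4 groups over all 30 libraries (filterByExpr, TMM scaling, robust dispersion), with Benjamini-Hochberg adjustment over 13190 genes. CPM are TMM-scaled. Correlations used log2(CPM + 1) and 100000 permutations, two-sided, over all mutant libraries without regard to shared parents. DESeq2 1.42.0 and limma-voom (limma 3.58.1), other scalings, no filter, fits of the compared groups alone and fits without single libraries were alternatives. Leaving out group 3 replicate 4, and running the alternatives on genes of the other lists, were chosen after seeing the data. The fit was tested on simulated data in which controls varied like mutants, so that test does not cover the distance between the real controls. Positions and lengths come from the Ensembl annotation of BDGP6.

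The members and lists were chosen with earlier results of these data known. Genes named were all 10 members, up to 4 genes of smallest p in each other list in group 4 against group 1, all listed relatives of the glycolytic genes, the 5 genes most like the mean of the 10, and those that a sentence says were chosen after their values were seen. Of the marker lists for group 4 against group 1, 0 of 10 muscle, 1 of 7 fat body and 5 of 7 testis genes were higher. Lower were 6 of 7 midgut, 6 of 6 eye and 4 of 4 nerve genes, and 0 of 7 ovary genes passed. Over all genes, 17.5% were higher and 15.7% lower in this comparison. Replicates were numbered in accession order. Sequences were not used here.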

Additional observations from a re-analysis of the deposited data

Results flagged for a closer look

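Of 30 groups of values tested (10 genes in 3 mutant groups), 2 held a library far from the others, and chance flags about 1 in 20 such groups. Both values came from the same library, group 3 replicate 4 of the non-flying mutants. *Hex-A* was at 335.1 CPM in it, where the next library of group 3 had 256.9 CPM and the group median was 234.2 CPM. *PyK* was at 1294 CPM, where the next had 897.4 CPM and the median was 800.8 CPM. The 10 genes summed to 10330 CPM in this library, the highest sum of the 28 mutant libraries. Without it, a choice made after seeing the data, the count of glycolytic genes called was the same in all 7 comparisons.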

How the results depend on the processing

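The count of glycolytic genes called against group 1, which was 1 in each comparison, depended on the controls. 4 libraries were left out singly (both controls, group 4 replicate 4 and group 3 replicate 4), and the count then ran from 1 to 6 in groups 4, 3 and 2. Without control library 1 it was 6, all lower, in each group (8.75%, 5.88% and 5.11% of all genes were then lower), and without control library 2 it was 2, 1 and 1, all higher (3.24%, 2.62% and 2.18% of all genes were then higher). With library totals alone it was 2 in group 4 and 2 in group 3 (*Hex-A* lower, *Tpi* higher), with limma-voom 2 in group 4, and with only the groups compared 0 in group 2. The other settings tried left these counts at 1, and among the mutant groups every setting gave 0. Of 1892 log2 fold changes of named genes under the alternatives, 1642 kept their direction and their side of the threshold, 118 lost and 53 gained a call, and 79 turned in sign, of which 2 were past the threshold in one of the fits (*Pdhb* in group 2 and *mAcon1* in group 3, without control library 2). No paired analysis was made, because no label joins a library of group 4 with its counterpart in group 3. Libraries of groups 3 and 4 alternate in accession order, which replicate numbers follow, but that order names no parents. The main limit is the 2 controls, which lay 1.88-fold to 7.19-fold apart on these genes.

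The log2 fold changes against group 1 that turned in sign with a single library left out are given as their lowest value, without control library 1, and their highest, without control library 2. *Pgi* ran over −0.41 to 0.55 in group 4, −0.24 to 0.73 in group 3 and −0.33 to 0.65 in group 2. *Pfk* ran over −0.70 to 0.25 in group 4, −0.58 to 0.38 in group 3 and −0.63 to 0.34 in group 2. *Gapdh1* ran over −1.45 to 1.36 in group 4, −1.42 to 1.40 in group 3 and −1.61 to 1.21 in group 2. *Gapdh2* ran over −0.49 to 0.47 in group 4, −0.39 to 0.57 in group 3 and −0.50 to 0.47 in group 2. *Pgk* ran over −1.01 to 0.59 in group 4, −0.97 to 0.64 in group 3 and −1.11 to 0.51 in group 2. *Pglym78* ran over −0.48 to 1.21 in group 4, −0.57 to 1.12 in group 3 and −0.85 to 0.85 in group 2. *Eno* ran over −1.10 to 0.48 in group 4, −0.99 to 0.60 in group 3 and −1.03 to 0.56 in group 2. *PyK* ran over −1.07 to 0.48 in group 4, −1.06 to 0.49 in group 3 and −1.09 to 0.47 in group 2. *Ald1* ran over −1.22 to 0.50 in group 4, −0.98 to 0.74 in group 3 and −0.93 to 0.80 in group 2. *muc* ran over −0.83 to 0.50 in group 4, −0.78 to 0.56 in group 3 and −0.84 to 0.51 in group 2. *Pdhb* ran over −0.19 to 0.93, −0.25 to 0.87 and −0.44 to 0.69 in these groups. In groups 3 and 2, *Ogdh* ran over −1.19 to 0.026 and −0.98 to 0.24, and *mAcon1* over −1.45 to 0.11 and −1.32 to 0.24. In group 2, *Tpi* ran over −0.13 to 0.75. The lowest value was instead that without control library 2 for *CG7059*, at −0.20 to 1.05, −0.21 to 1.03 and −0.24 to 1.00 in groups 4, 3 and 2, and for *Pglym87* in group 4, at −0.25 to 0.078. Among the mutants, values near 0 turned without group 4 replicate 4 or group 3 replicate 4. Their ranges in group 4 against group 3 were −0.019 to 0.084 for *PyK*, −0.07 to 0.038 for *Pgk* and −0.035 to 0.073 for *Gapdh1*. In group 4 against group 2 they were −0.0062 to 0.017 for *PyK* and −0.066 to 0.0082 for *Gapdh2*. In group 3 against group 2 they were −0.023 to 0.044 for *Hex-A*, −0.035 to 0.045 for *Eno* and −0.067 to 0.024 for *PyK*. In flying against non-flying mutants they were −0.013 to 0.052 for *PyK* and −0.014 to 0.063 for *Pgk*. Under the other settings, *Gapdh2* in group 3 against group 1 turned to −0.0082 with DESeq2 and with its size factors in edgeR, and to −0.0001 with no filter, while *PyK* in group 4 against group 3 turned to 0.007 with both of the first and to 0.0066 with only the groups compared. With library totals alone, *Pgi* in group 4 against group 1 turned to 0.072, *Pdhb* in group 2 against group 1 to 0.11, *PyK* to 0.011 in group 4 against group 3 and −0.0037 in group 3 against group 2, and *Gapdh2* to −0.0054 in group 4 against group 2. With limma-voom, *Pgi* turned to 0.058 and *Pdhb* to 0.11 in the same comparisons, and *Gapdh1* to 0.013 in group 4 against group 3. With only the groups compared, *Pdhb* turned to 0.0002, and *PyK* in flying against non-flying mutants to −0.0001. Without the 6 libraries labelled human skin, *Pgi* and *Gapdh2* in group 4 against group 1 turned to 0.051 and 0.015, *Pdhb* in group 2 against group 1 to 0.013, and *Gapdh2* to 0.0043 in group 4 against group 3 and 0.0597 in flying against non-flying mutants. The cause of these changes was not tested.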

Other observations

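Genes downstream of pyruvate and those for stored sugars were read from further lists. Of 7 matched genes for the entry of pyruvate into mitochondria, 2 were called higher in group 4 against group 1, *Pdp* (log2 fold change 0.37), for a pyruvate dehydrogenase phosphatase, and *Mpc1* (0.47), of the mitochondrial pyruvate carrier (edgeR, adjusted p = 0.019 and 0.027). Both were called in group 3 as well, and 0 of 7 in group 2. The shares of all genes called higher were 17.5%, 14.2% and 10.7% in groups 4, 3 and 2. *Pdp* was not called with either control left out, and *Mpc1* not without control library 1. Of 17 matched genes listed for the tricarboxylic acid cycle, *Idh* alone was higher in each mutant group. It was listed beside *Idh3a*, *Idh3b* and *Idh3g*. In groups 4, 3 and 2, 5, 3 and 2 of the 17 were lower, beside 15.7%, 12.3% and 9.52% of all genes. *Ogdh*, of the oxoglutarate dehydrogenase complex, and *mAcon1*, a mitochondrial aconitase, had −1.01 and −1.07 in group 4 (edgeR, adjusted p = 0.0093 and 0.013), but without control library 2 they had −0.27 and −0.08. *ScsbetaG* had −0.42 and *Idh* 0.50 (edgeR, adjusted p = 0.0075 and 0.0078), the first lost without control library 2 and the second without control library 1.

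Of 13 matched genes of glycogen and trehalose, 2 were higher and 1 was lower in each mutant group against group 1. In groups 4, 3 and 2, 17.5%, 14.2% and 10.7% of all genes were higher and 15.7%, 12.3% and 9.52% lower. *Treh*, the trehalase that releases glucose from the blood sugar of insects, was at 187 to 303 CPM in group 4, 223 to 336 CPM in group 3 and 190 to 322 CPM in group 2, against 333 and 464 CPM in the controls, with log2 fold changes of −0.75, −0.53 and −0.53. Without control library 2, *Treh* had −0.50, −0.28 and −0.28 and was not called. *Tret1-2*, of the trehalose transporter family, had 0.62, 0.67 and 0.69, and *Pgm2b*, of the phosphoglucomutase family, 0.45, 0.59 and 0.50, and neither was called without control library 2. Of 8 matched regulators of sugar metabolism, the same 2 were lower in each group and 0 were higher, *bigmax*, the partner of the sugar sensor Mondo (−0.58, −0.56 and −0.66), and *sug*, a target of Mondo (−0.96, −0.95 and −1.06), both lost without control library 2.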
